A study of Rattus norvegicus with 6 samples.

Results

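The 10 genes described here encode chemokines, small secreted proteins that draw leukocytes along a gradient. They are *Ccl2*, *Ccl7* and *Ccl12*, which attract monocytes, *Ccl3*, *Ccl4* and *Ccl5*, which attract monocytes and T cells, *Ccl11* and *Ccl24*, the eotaxins that attract eosinophils, *Ccl22*, which attracts T cells, and *Cxcl14*, which attracts monocytes and dendritic cell precursors. They were chosen by name, and every gene probe of the array whose RefSeq accession stands for one of these symbols was taken. Of 15168 genes with a probe these were 10, each with 1 probe. All 10 probes were well above background on all 6 arrays, so each gene was among the 10975 tested and none entered through only 1 of the groups.

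The study measured RNA of primary Leydig cells, the testosterone-producing cells between the seminiferous tubules, from Sprague-Dawley rats. In the exosome group (3 samples) the medium received vesicles released by primary rat Sertoli cells, the nurse cells of the tubule, at 5 µg/ml for 24 h. The untreated group (3 samples) received no exosomes. Both groups were kept, per the labels, at 34 °C under 5% CO2 with 10% fetal bovine serum. The labels number the samples without naming an animal or culture for each, so the tests speak of the spread among these 6 samples, which may be technical. Neither a vehicle group nor a group given vesicles from another source is among these samples.

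As background, most chemokines act on the attracted cell through receptors that signal by inhibitory G proteins, and several ligands share a receptor. Ccl2 and Ccl7 act on Ccr2, as Ccl12 does in the mouse. Ccl3 and Ccl5 act on Ccr1. Ccl11 and Ccl24 act on Ccr3, and Ccl22 acts on Ccr4. In the testis, macrophages lie next to Leydig cells. Stromal cells and macrophages make monocyte chemokines when interleukin 1 or tumour necrosis factor reaches them. Many of these genes need NF-kB for their transcription, and the eotaxin genes also answer to Stat6.

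Most of these genes lie in clusters. In the RefSeq annotation of rat assembly GRCr8, *Ccl2*, *Ccl7*, *Ccl11* and *Ccl12* follow each other on chromosome 10 with no other protein-coding gene between them. *Ccl5*, *Ccl3* and *Ccl4* lie on the same chromosome, the last of these being direct neighbours. *Ccl24* is on chromosome 12, *Cxcl14* on chromosome 17 and *Ccl22* on chromosome 19. RefSeq promoters were at hand for 5 of the 10 genes, namely *Ccl7*, *Ccl12*, *Ccl22*, *Ccl24* and *Cxcl14*. The 250 bases before the start of *Ccl12* and of *Ccl7* are shown because these genes of 1 cluster were measured in opposite directions. They stand at chr10:67567626-67567875 and chr10:67513845-67514094 of GRCr8, plus strand, and capitals mark the motifs found.
Ccl12: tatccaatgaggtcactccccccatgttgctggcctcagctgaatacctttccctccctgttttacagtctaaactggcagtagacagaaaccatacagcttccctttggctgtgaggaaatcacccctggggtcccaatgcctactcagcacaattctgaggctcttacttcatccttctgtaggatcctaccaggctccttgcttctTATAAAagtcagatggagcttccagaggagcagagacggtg
Ccl7: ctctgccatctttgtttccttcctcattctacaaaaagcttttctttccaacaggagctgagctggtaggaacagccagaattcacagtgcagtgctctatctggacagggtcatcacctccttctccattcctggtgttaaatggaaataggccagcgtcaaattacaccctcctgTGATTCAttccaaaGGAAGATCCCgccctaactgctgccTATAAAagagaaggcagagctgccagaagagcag
The motifs searched were TATAAA on the coding strand, and on both strands TGANTCA (the AP-1 motif), TTCNNNGAA (the motif of STAT proteins) and the NF-kB consensus. In *Ccl12* the capitals are TATAAA, 41 bases before the start. In *Ccl7* they are an AP-1 match 73 bases before the start, an NF-kB match at 59 bases and TATAAA at 34 bases, and none of these overlap. Of 33469 promoters of this length, 8.06% held TATAAA, 6.34% the AP-1 motif, 6.33% the NF-kB consensus and 7.67% the STAT motif. *Ccl24* held TATAAA at 65 bases and a STAT match at 129 bases before its start. *Cxcl14* held an AP-1 match at 99 bases, and *Ccl22* held no match to any of the motifs. A match describes letters and is not evidence of binding.

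Levels are given on the log2 scale relative to the 75th percentile of the gene spots on the same array, so 0 stands for that percentile. A change is the mean of the 3 exosome arrays minus the mean of the 3 untreated arrays, given ± SE. It passed the test at an adjusted p below 0.05 (limma, Benjamini-Hochberg over all tested probes). Of gene spots, 67.2% to 72.2% were well above background on the exosome arrays and 72.6% to 75.6% on the untreated arrays. The median change of all tested genes was -0.19 with the 75th percentile, 0.01 with quantile normalization and 0.22 when arrays were centred on the median of their probes. The main test called 14.6% of all tested genes higher and 29.2% lower. Those shares were 20.2% and 16.1% with quantile normalization and 33.8% and 7.99% with median centring, so directions of small changes depend on the scaling. The untreated arrays shared 1 scan, exosome 1 and 2 shared another, and exosome 3 had its own, so scan and group cannot be told apart. Of 11 Leydig cell genes, 6 were well above background on all 6 arrays, among them *Star*, *Hsd3b1* and *Insl3*, while *Lhcgr* and *Nr5a1* were so on none. Of 22 macrophage genes 20 were well above background on all 6 arrays. In such bulk RNA, fewer cells of a type and less RNA per cell cannot be told apart.

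Among the 10 chemokines, *Ccl2*, *Ccl3*, *Ccl12* and *Cxcl14* rose with exosomes, by 1.54 to 1.88-fold. *Ccl7* and *Ccl22* fell, being 1.43 and 1.37-fold higher in untreated cells. *Ccl4*, *Ccl5*, *Ccl11* and *Ccl24* did not pass the test. The 4 that rose compare with 14.6% of all genes and the 2 that fell with 29.2%. Every exosome array lay above every untreated array for 5 of the 10 and below for 3, and over all tested genes 24.1% were apart and higher and 37.9% apart and lower. The median change of the 10 was 0.32, beside -0.19 for all tested genes. No member reached a 2-fold change with the 75th percentile scaling. *Ccl12* did with quantile normalization (1.19), and *Ccl2* (1.32), *Ccl12* (1.17), *Ccl3* (1.04) and *Cxcl14* did with median centring.

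**Figure D1:**
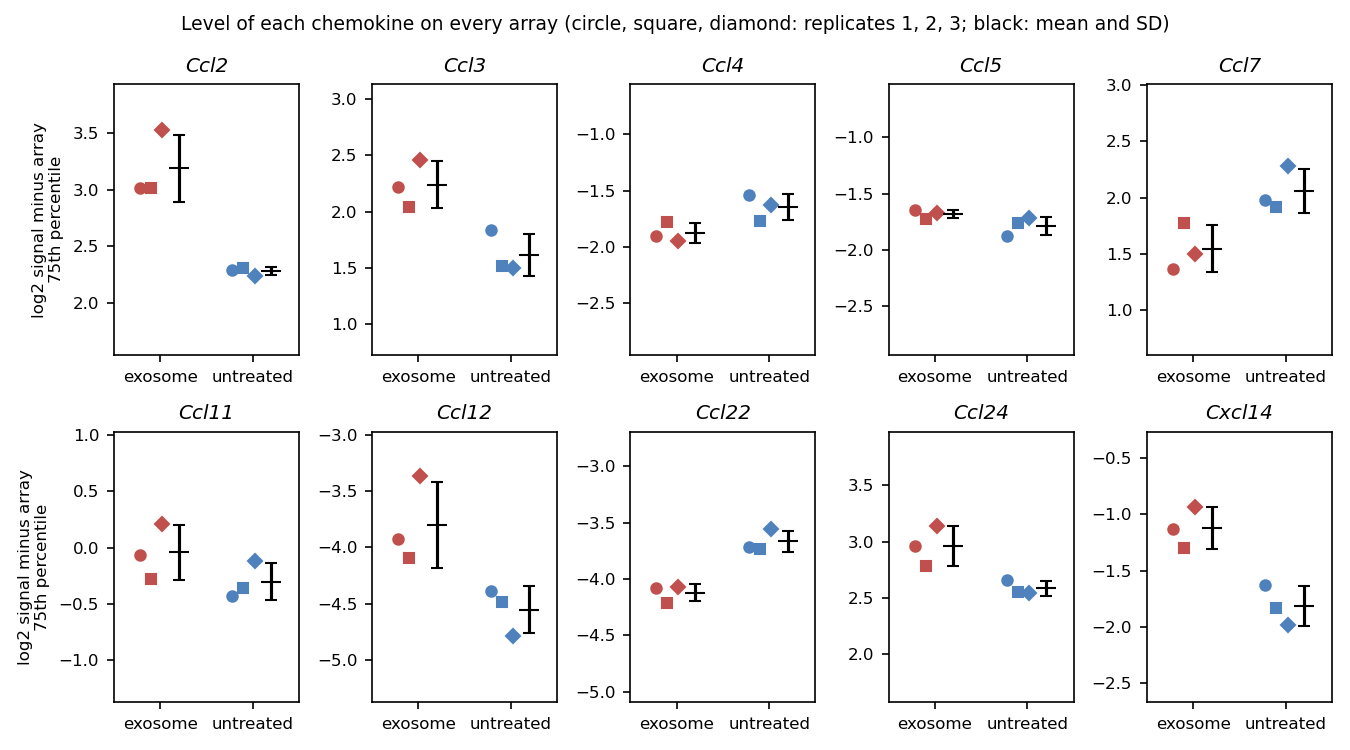
Level of each of the 10 chemokines on each array, as log2 of the processed intensity relative to the array's 75th percentile, with exosome arrays left of untreated arrays in each panel. Circles, squares and diamonds are replicates 1, 2 and 3, and the black mark with its bar is the mean and SD. The exosome points of *Ccl2* lie between 3.02 and 3.54, all above the untreated points, and those of *Ccl7* lie between 1.36 and 1.78, all below.

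*Ccl2*, the main attractant of monocytes, had the largest rise of the 10 with the 75th percentile scaling, while with quantile normalization *Ccl12* had (1.19, beside 0.87 for *Ccl2*). Its levels were 3.02, 3.02 and 3.54 on the exosome arrays, against 2.29, 2.31 and 2.24 on the untreated arrays. The groups lay apart, exosome 3 was the highest array, and the untreated arrays were close to each other. The change was 0.91 ± 0.17, or 1.88-fold, with an adjusted p of 0.012 in limma and a 95% interval of 0.51 to 1.32. Of all tested genes 2.42% had a larger change. *Ccl2* has 10 spots on the array, and the used spots read 7894 to 10360 intensity units on the exosome arrays and 3252 to 4593 on the untreated arrays. The SD between its spots on an array was at most 0.045 with exosomes and 0.057 without, on the log2 scale. The call did not hold without untreated replicate 2 (0.93, adjusted p = 0.051 in limma) or untreated replicate 3 (0.89, adjusted p = 0.050 in limma). It held in each of the 5 other scalings and tables, with changes of 0.87 to 1.32.

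*Ccl7*, the next gene on the chromosome and a ligand of the same receptor, went the other way. Its levels were 1.36, 1.78 and 1.50 with exosomes, against 1.98, 1.92 and 2.28 without. Every exosome array was below every untreated array, and exosome 2 came nearest to them. The change was -0.51 ± 0.16 with an adjusted p of 0.044 in limma and an interval of -0.90 to -0.12. The call stood close to the threshold. It was lost when any array other than exosome 2 was left out (-0.58 to -0.40), when scan was a random block (-0.51, adjusted p = 0.068 in limma) and with median centring (-0.10). The call was also lost with the percentile taken over probes, with no filter on dim probes and with the replicate number as a block. In the authors' deposited table *Ccl7* averaged 11.34 ± 0.25 with exosomes and 11.90 ± 0.19 without (log2, SD, n = 3).

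*Ccl12*, known in the mouse as a ligand of Ccr2, rose. Its levels were -3.93, -4.10 and -3.37 with exosomes, against -4.38, -4.49 and -4.78 without. The groups lay apart, again with exosome 3 highest. The change was 0.75 ± 0.22, or 1.69-fold, with an adjusted p of 0.034 in limma and an interval of 0.23 to 1.28. This was a dim probe, at 66.1, 62.0 and 83.2 intensity units on the exosome arrays and 41.8, 34.7 and 27.4 on the untreated arrays. The change was 0.22 with normexp on median spot signals, not past the test (adjusted p = 0.182 in limma), and 1.19 with quantile normalization. The call was also lost without exosome replicate 1 (0.82), exosome replicate 3 (0.54), untreated replicate 2 (0.79) or untreated replicate 3 (0.64).

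*Ccl3*, macrophage inflammatory protein 1 alpha and a ligand of Ccr1, rose. It stood at 2.22, 2.04 and 2.45 with exosomes, against 1.83, 1.52 and 1.49 without. No exosome array was as low as the highest untreated array. The change was 0.62 ± 0.16, or 1.54-fold, with an adjusted p of 0.025 in limma and an interval of 0.24 to 1.01. *Ccl3* also has 10 spots, which read 4095 to 5042 intensity units with exosomes and 1859 to 3415 without. Its call was lost without exosome replicate 1 (0.63), exosome replicate 3 (0.51), untreated replicate 2 (0.57) or untreated replicate 3 (0.56).

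*Ccl4*, macrophage inflammatory protein 1 beta and the neighbour of *Ccl3*, did not pass the test. Its levels were -1.91, -1.78 and -1.94 with exosomes, against -1.54, -1.77 and -1.63 without. The exosome arrays were the lower ones, but exosome 2 and untreated 2 nearly met. The change was -0.23 ± 0.12 with an interval of -0.52 to 0.06 and an adjusted p of 0.160 in limma. Its sign turned to 0.18 with median centring, and with normexp it was -0.27 and past the test (adjusted p = 0.048 in limma). Relative to the median of all genes it was at -0.04.

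*Ccl5*, which attracts T cells, monocytes and eosinophils, was at -1.65, -1.72 and -1.67 with exosomes, against -1.88, -1.76 and -1.72 without. The groups touched, exosome 2 and untreated 3 being at the same rounded level. The change was 0.11 ± 0.11 with an interval of -0.16 to 0.37 and an adjusted p of 0.458 in limma. With quantile normalization it was 0.30 and past the test (adjusted p = 0.047 in limma), and with median centring 0.52 (adjusted p = 0.016 in limma). In the authors' deposited table it averaged 8.24 ± 0.06 with exosomes and 7.94 ± 0.04 without (log2, SD, n = 3).

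Of the eotaxins, *Ccl24* was brighter on every exosome array without passing the test. Its levels were 2.96, 2.78 and 3.14 with exosomes, against 2.66, 2.55 and 2.54 without. The groups lay apart. The change was 0.38 ± 0.13, or 1.30-fold, with an interval of 0.06 to 0.69 and an adjusted p of 0.059 in limma. It passed under all 5 other scalings and tables, at 0.35 to 0.79 (adjusted p = 0.042 in limma with quantile normalization), and without exosome replicate 2 (0.47). *Ccl11*, the other eotaxin, was at -0.06, -0.28 and 0.21 with exosomes, against -0.43, -0.36 and -0.12 without. Here exosome 2 lay below untreated 3, so the groups overlapped. The change was 0.26 ± 0.17 with an interval of -0.14 to 0.66 and an adjusted p of 0.238 in limma. It passed with median centring alone among the scalings tried (0.67, adjusted p = 0.020 in limma).

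*Ccl22*, the ligand of Ccr4, fell with the 75th percentile scaling. Its levels were -4.08, -4.21 and -4.08 with exosomes, against -3.71, -3.73 and -3.56 without. The groups lay apart on this scale and the arrays of each were close together. The change was -0.46 ± 0.12 with an adjusted p of 0.023 in limma and an interval of -0.73 to -0.18. The processed intensities themselves overlapped, at 59.3, 57.3 and 51.0 with exosomes and 66.5, 58.7 and 63.9 without. With quantile normalization the change was -0.06 (adjusted p = 0.706 in limma) and with median centring -0.04, neither past the test. In the authors' deposited table *Ccl22* averaged 5.90 ± 0.08 with exosomes and 5.95 ± 0.11 without (log2, SD, n = 3). The call was also lost without exosome replicate 1 (-0.48), untreated replicate 2 (-0.49) or untreated replicate 3 (-0.40).

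*Cxcl14*, the CXC chemokine of the group, rose. It stood at -1.14, -1.30 and -0.94 with exosomes, against -1.63, -1.83 and -1.98 without. All exosome arrays were above all untreated arrays, with exosome 3 the highest. The change was 0.69 ± 0.15, or 1.61-fold, with an adjusted p of 0.017 in limma and an interval of 0.32 to 1.06. Of all tested genes 6.71% had a larger change. The intensities were 457, 429 and 449 units with exosomes, against 282, 219 and 191 without. It passed under the 5 other scalings and tables, with 0.85 under quantile normalization, and its call was lost without exosome replicate 1 (0.69), untreated replicate 2 (0.68) or untreated replicate 3 (0.60).

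**Figure D2:**
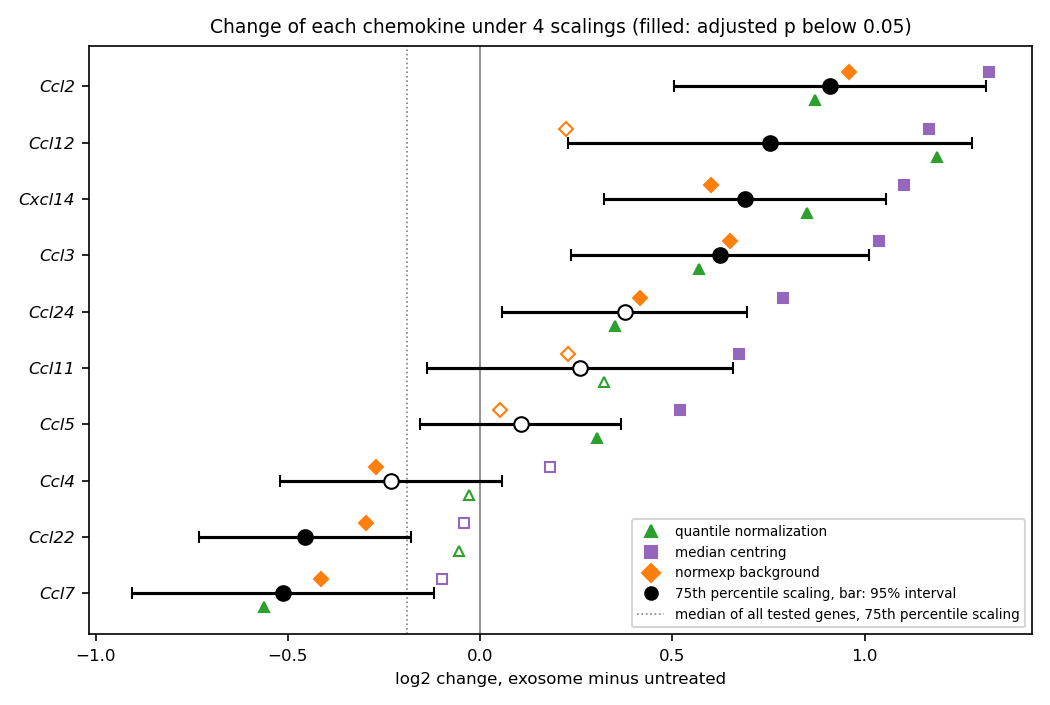
Change of each chemokine (exosome minus untreated, log2) with the 75th percentile scaling (circles, with 95% intervals), quantile normalization, median centring and normexp. Filled symbols passed the test, the solid line marks no change and the dotted line the median of all tested genes. *Ccl2*, *Ccl3*, *Ccl12*, *Cxcl14* and *Ccl24* lie right of the line in every setting shown, *Ccl7* and *Ccl22* left of it, and *Ccl4* on both sides.

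Across the settings, *Ccl2*, *Ccl3*, *Cxcl14* and *Ccl24* were called higher under all 5 other scalings and tables and *Ccl12* under 4 of them. With quantile normalization 6 members were called higher and 1 lower. The authors' deposited table gave the same counts, beside 20.2% and 16.2% of all tested genes. With normexp background correction 4 were called higher and 3 lower, beside 17.9% and 35.3%, and with median centring 7 and 0, beside 33.8% and 7.99%. With the percentile taken over probes instead of spots, an alternative chosen after seeing the data, 5 were called higher and 1 lower, beside 18.9% and 24.1%. With scan as a random block 4 were called higher and 1 lower, beside 10.8% and 24.7%. No member was called with a 2-fold minimum, which 1.49% of all tested genes passed upward and 8.07% downward.

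Leaving out any of 4 arrays lowered the counts of members and of all genes together. Without untreated replicate 2 limma called 0 members, beside 1.22% of all tested genes higher and 7.5% lower, and 4 were higher and 2 lower at an unadjusted p below 0.05. Without untreated replicate 3 it also called 0 members, beside 1.95% and 9.11%, and 4 were higher and 1 lower at an unadjusted p below 0.05. Without exosome replicate 1, 1 member was called higher and 0 lower, beside 3.44% and 12.8%. Without exosome replicate 3, 2 were called higher and 1 lower, beside 6.99% and 21.7%. The counts were 5 higher and 2 lower without exosome replicate 2, beside 15.7% and 30%, and 4 higher and 1 lower without untreated replicate 1, beside 14.3% and 29.9%.

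Exosome 3 was the highest exosome array for 7 of the 10 members, including all 4 that rose. The same held for 73.4% of all genes called higher (1173 of 1598), and exosome 3 was also the array with a scan of its own. Without it the change of *Ccl2* was 0.74, still past the test (adjusted p = 0.019 in limma). The part of the scan in these levels was not tested.

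**Figure D3:**
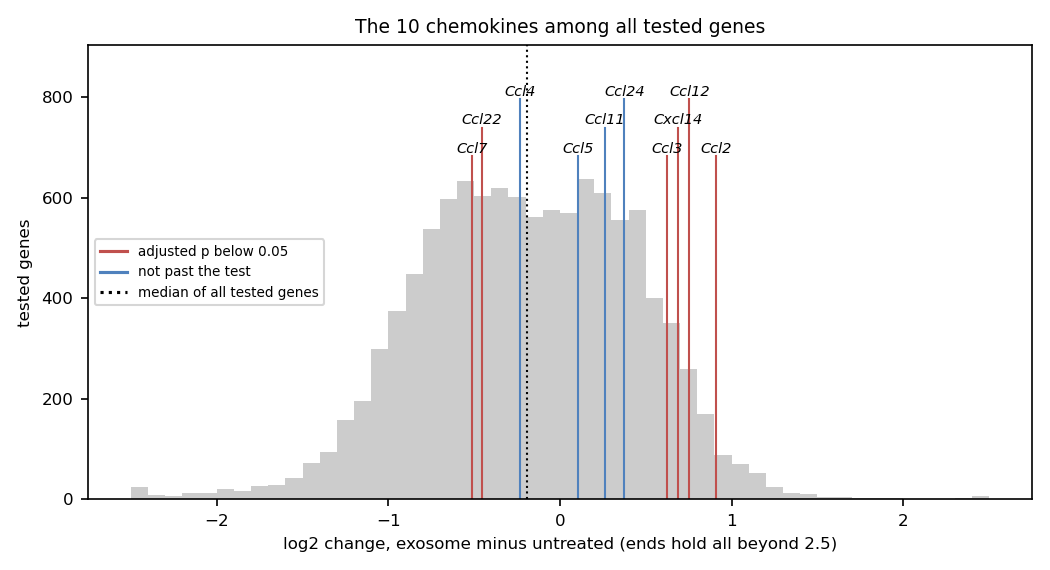
Histogram of the change (exosome minus untreated, log2) of all 10975 tested genes, with the end bins holding all changes beyond 2.5. A vertical line marks each of the 10 chemokines, coloured by whether it passed the test, and the dotted line marks the median of all genes at -0.19. *Ccl2* stands at 0.91, above all but 2.42% of genes, and *Ccl7* at -0.51.

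A ratio of genes on the same array does not depend on a scaling that subtracts 1 constant from each array, while quantile normalization can change it. Such log2 ratios are given relative to their untreated mean, which is 0 by construction, for 5 pairs chosen after their values were seen and therefore with no test. *Ccl2* over *Ccl7* stood at 1.43, 1.02 and 1.82 with exosomes, against 0.09, 0.17 and -0.26 without. *Ccl12* over *Ccl7* stood at 1.32, 0.74 and 1.74 with exosomes, against 0.25, 0.21 and -0.45 without. *Ccl11* over *Ccl7* stood at 0.93, 0.31 and 1.07 with exosomes, against -0.05, 0.09 and -0.04 without. Each of these ratios over *Ccl7* was higher on every exosome array than on any untreated array. They share the reading of the *Ccl7* probe, so they are not independent, and *Ccl11* itself did not pass the test. *Ccl3* over its neighbour *Ccl4* stood at 0.87, 0.56 and 1.14 with exosomes, against 0.11, 0.03 and -0.14 without. *Ccl24* over *Ccl22* stood at 0.79, 0.74 and 0.96 with exosomes, against 0.12, 0.03 and -0.15 without. With quantile normalization the changes of *Ccl24* and *Ccl22* were 0.35 and -0.06, which lie closer together than here. In all 5 pairs the exosome arrays were above the untreated arrays on the scale given.

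**Figure D4:**
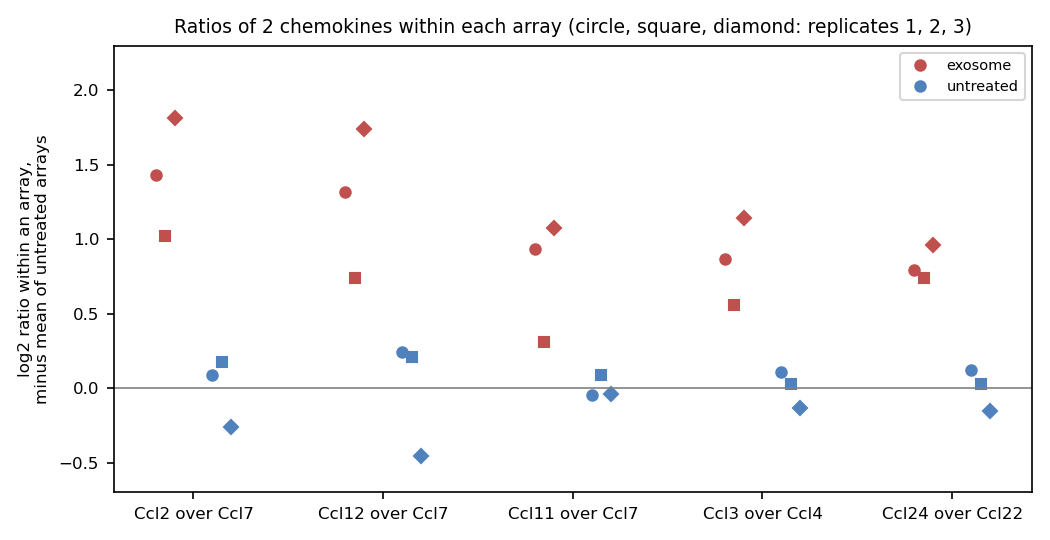
Log2 ratio of pairs of chemokines on the same array, relative to the mean of the untreated arrays, with exosome arrays left of untreated arrays for each pair. Circles, squares and diamonds are replicates 1, 2 and 3. *Ccl2* over *Ccl7* averages 1.42 on the exosome arrays, and every exosome point of the 5 pairs is above the untreated points of its pair.

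For each member past the test, the 3 tested genes whose level moved most alike over the 6 arrays were looked up among the other 10974, by the root mean square difference of centred log2 levels. Nearest to *Ccl2* were *Tuba8* (0.049), *Sub1* (0.060) and *Hspa4* (0.087). Nearest to *Ccl3* were *Sirt5* (0.025), *Atp5f1e* (0.026) and *Gspt1* (0.032), and to *Cxcl14* they were *Smn1* (0.015), *Srpra* (0.016) and *Pgam5* (0.018). For *Ccl12* they were *4933416E14Rikl* (0.059), *Chst10* (0.078) and *Syndig1* (0.081). For the genes that fell, they were *Ethe1* (0.053), *Des* (0.065) and *Use1* (0.066) beside *Ccl7*, and *Ptpre* (0.030), *Phb1* (0.031) and *Rnasek* (0.041) beside *Ccl22*. None of the genes nearest to a chemokine was itself a chemokine. This says little, since only 10 members and 17 other chemokines were among the tested genes.

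Of 25 other chemokines on the array 17 were tested, and 2 were called higher and 1 lower, beside 14.6% and 29.2% of all tested genes. *Cxcl2* rose by 1.27 ± 0.25 (adjusted p = 0.014 in limma) and *Cxcl1* by 0.72 ± 0.15 (adjusted p = 0.015 in limma), both attractants of neutrophils. *Xcl1*, which attracts dendritic cells, fell by 0.78 (SE 0.14, adjusted p = 0.011 in limma). All 3 calls were lost without untreated replicate 2 (1.21, 0.76 and -0.78), and those of *Cxcl2* and *Cxcl1* also without untreated replicate 3 (1.11 and 0.72). The median change of the 17 was 0.11, beside -0.19 for all tested genes. Dimmer probes of *Ccl20* (0.93, adjusted p = 0.031 in limma) and *Cxcl12* (0.71, adjusted p = 0.017 in limma) passed upward. The brighter probes that stood for these genes gave 0.41 and 0.11 and did not pass.

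Receptors of these chemokines were at the edge of detection. *Ccr1* was well above background on 1 exosome array and 2 untreated arrays, and *Ccr2* on 1 and 3. Neither passed the test, at -0.31 ± 0.21 for *Ccr1* (adjusted p = 0.262 in limma) and -0.67 ± 0.62 for *Ccr2* (0.411), and the sign of *Ccr1* turned to 0.27 with quantile normalization. *Ccr4* was well above background on 0 exosome arrays and 2 untreated arrays and *Ccr3* on none, so neither was tested. Of 20 receptors on the array 8 were tested, and 3 fell and 0 rose, beside 29.2% and 14.6% of all tested genes. The counts were the same in limma at an unadjusted p below 0.05. *Ccrl2*, which binds the attractant chemerin, fell by 1.36 (SE 0.20, adjusted p = 0.010 in limma). *Cxcr4*, the receptor of Cxcl12, fell by 0.95 (SE 0.18, adjusted p = 0.013 in limma). *Cx3cr1*, the fractalkine receptor of monocytes and macrophages, fell by 1.94 (SE 0.40, adjusted p = 0.014 in limma). The calls of *Cxcr4* (-0.98) and *Cx3cr1* (-1.82) were lost without untreated replicate 2.

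Among 25 genes of the signals that induce chemokines, 23 were tested, with a median change of 0.46. Of these, 8 rose and 6 fell, beside 14.6% and 29.2% of all tested genes. The 4 of smallest adjusted p all fell. *Stat6*, the factor that carries interleukin 4 and 13 signals to the eotaxin genes, fell by 1.13 (SE 0.11, adjusted p = 0.0098 in limma). *Rela*, a subunit of NF-kB, fell by 1.18 (SE 0.15, adjusted p = 0.0098 in limma), and its dimmer probe by 0.54. *Ifngr1*, a chain of the interferon gamma receptor, fell by 0.88 (SE 0.15, adjusted p = 0.011 in limma), and this call was lost with median centring (-0.47). *Il1rap*, the partner of the interleukin 1 receptor, was well above background on 0 exosome arrays and 3 untreated arrays, at least 1.43-fold lower with exosomes, and its call was lost with quantile normalization (-0.62). Opposite to these stood *Il1b*, interleukin 1 beta, named after its values were seen. It was well above background on 3 exosome arrays and 0 untreated arrays, at least 3.30-fold higher with exosomes. A bound of this kind raises each dim array to its lowest signal well above background before group means are taken. *Il1rap* and *Il1b* each met the filter for testing only through the group where they were high, so their tests carry no weight here. Both still stand in the counts above, *Il1b* among the 8 that rose and *Il1rap* among the 6 that fell. *Il1rap* is also 1 of the 4 of smallest adjusted p.

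Of 10 tested genes that cut chemokines or hold them at the cell surface, 6 were called lower and 1 higher, beside 29.2% and 14.6% of all tested genes, with a median change of -0.61. With median centring 1 was called lower and 1 higher, beside 7.99% and 33.8% of all tested genes. The median of the list was then -0.19, beside 0.22 for all tested genes. Without untreated replicate 2 or untreated replicate 3 none was called lower, beside 7.5% and 9.11% of all tested genes. *Mmp3* fell by 1.08 (SE 0.22, adjusted p = 0.015 in limma) and *Mmp2* by 0.90 (SE 0.18, 0.014). *Mmp9* averaged -3.87 ± 0.38 with exosomes and -2.87 ± 0.31 without (SD, n = 3), an adjusted p of 0.020 in limma. All are proteases that can cut chemokines. *Sdc2*, a heparan sulfate carrier, fell by 0.85 (SE 0.20, adjusted p = 0.020 in limma). These 4 calls were lost without untreated replicate 2 (-0.86 for *Sdc2* to -1.12 for *Mmp9*) or untreated replicate 3 (-0.80 for *Sdc2* to -1.07 for *Mmp9*). Those of *Mmp2* (-0.85), *Mmp9* (-0.92) and *Sdc2* (-0.88) were also lost without exosome replicate 1, and that of *Mmp9* (-0.87) without exosome replicate 3. With median centring the calls of *Mmp2* (-0.49), *Mmp9* (-0.59) and *Sdc2* (-0.44) were lost. Not every protease of the list fell. The 1 gene called higher was *Mmp14* (0.57, SE 0.17, adjusted p = 0.039 in limma), a call lost without any array other than untreated 1.

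Of 13 tested genes of signalling behind chemokine receptors, 2 rose and 6 fell, beside 14.6% and 29.2% of all tested genes, with a median change of -0.39. With median centring 4 were called higher and 3 lower, beside 33.8% and 7.99% of all tested genes. The median of the list was then 0.02, beside 0.22 for all tested genes. *Rac1*, a GTPase of cell migration, fell by 1.05 (SE 0.18, adjusted p = 0.011 in limma). *Pik3r5*, a regulator of phosphoinositide 3-kinase gamma, fell by 0.87 (SE 0.14, adjusted p = 0.010 in limma). *Ptk2b*, a focal adhesion kinase, fell by 1.06 (SE 0.16, adjusted p = 0.010 in limma), but its dimmer probe gave 0.10. *Gnai3*, an inhibitory G protein subunit, rose by 0.72 ± 0.13 (adjusted p = 0.012 in limma), a call lost without untreated replicate 2 (0.73).

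**Figure D5:**
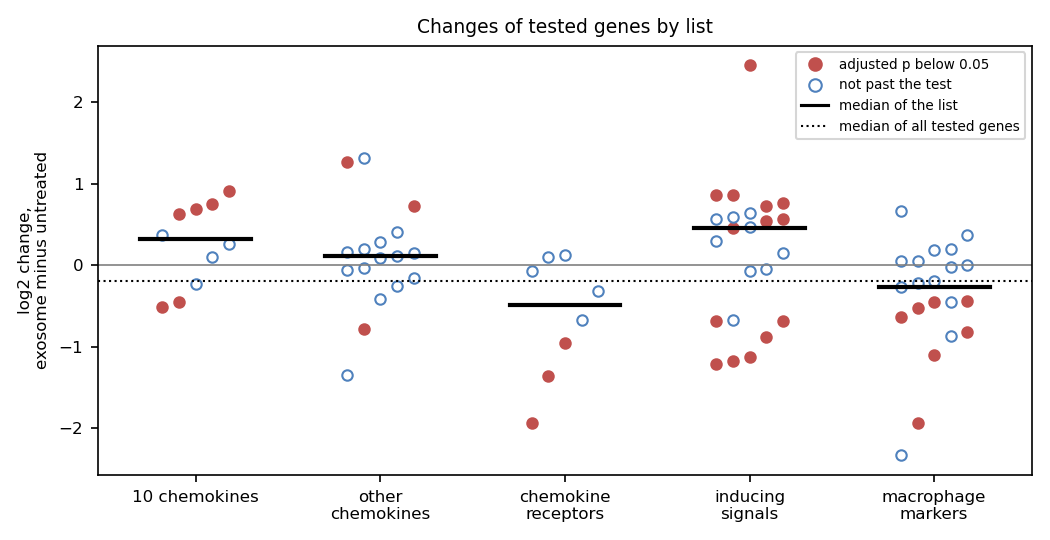
Change (exosome minus untreated, log2) of each tested gene, with 1 column of points for each list and a bar at its median. Filled points passed the test, and the dotted line marks the median of all tested genes. The median of the 10 chemokines is 0.32, that of the inducing signals 0.46 and that of the macrophage genes -0.27, beside -0.19 for all tested genes.

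Macrophage genes, whose cells are a known source of these chemokines, did not rise in the main test. Of 22, 21 were tested, with 0 called higher and 7 lower, beside 14.6% and 29.2% of all tested genes, and a median change of -0.27. Dimmer probes of *Csf1r* (-1.09), *Fcgr1a* (-0.46) and *Fcer1g* (-0.64) passed downward, beside 0.05, 0.20 and -0.45 on the probes used. That of *Aif1* (-0.13, beside 0.37) did not pass. The 4 of smallest adjusted p were *C1qc* (-0.82 ± 0.15, adjusted p = 0.012 in limma), *C1qa* (-0.63 ± 0.13, 0.013), *Cx3cr1*, given above, and *Cd74* (-1.10 ± 0.23, 0.014). *C1qb*, also of this list, gave 0.004 (SE 0.13, adjusted p = 0.982 in limma). The calls of *C1qc* (-0.85) and *C1qa* (-0.66) were lost without untreated replicate 2, and those of *C1qa* (-0.59) and *Cd74* (-1.10) without untreated replicate 3. The call of *C1qa* was also lost without exosome replicate 1 (-0.60). At an unadjusted p below 0.05 in limma 1 was higher and 9 were lower. The calls of *C1qc* (-0.41) and *C1qa* (-0.22) were lost with median centring and that of *Cd74* (-0.67) with quantile normalization. With quantile normalization 3 macrophage genes were called higher and 4 lower, beside 20.2% and 16.1% of all tested genes. With median centring 5 were called higher and 1 lower, beside 33.8% and 7.99%. The summed level of the 22 genes was 74.5 to 79.7 times the 75th percentile on the exosome arrays and 79.6 to 85.9 times on the untreated arrays, while that of the 10 chemokines was 24.5 to 31.1 times and 19.2 to 20.5 times. *Cd68* on exosome 3 stood at -3.45, against 3.15 and 3.35 on exosome 1 and 2 and 3.18 to 3.47 on the untreated arrays. Without it the macrophage sums were 66.3 to 74.5 times on the exosome arrays and 70.5 to 75.3 times on the untreated arrays, which overlapped. The part of macrophage RNA in the chemokine changes was not tested.

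Eosinophil genes were at or near background. Of 8 on the array 2 were well above background on all 6 arrays and 4 on none, namely *Epx*, *Prg3*, *Il5ra* and *Ccr3*. Of 4 tested, 2 fell and 0 rose, beside 29.2% and 14.6% of all tested genes. At an unadjusted p below 0.05 in limma 3 were lower and 0 higher. *Csf2rb*, a cytokine receptor chain, was well above background on 0 exosome and 3 untreated arrays, at least 1.78-fold lower with exosomes. It met the filter for testing only through the untreated group, and it is 1 of the 2 that fell. *Siglec5* fell by 0.91 (SE 0.26, adjusted p = 0.032 in limma), a call lost without any array other than exosome 2 or untreated 1 (-0.66 to -0.96) and with quantile normalization (-0.61). Their summed level was 0.178 to 0.208 times the 75th percentile on the exosome arrays and 0.249 to 0.391 times on the untreated arrays.

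The summed level of 9 Sertoli cell genes was 13.4 to 15.5 times the 75th percentile with exosomes and 20.9 to 28.6 times without, with 1 of 7 tested called higher and 2 lower. *Clu* carried this difference, since without it the sums were 4.60 to 6.07 times with exosomes and 4.83 to 5.56 times without, and the gene called higher, *Wt1* (0.49), had other probes at -1.09 and -1.16. That of 6 peritubular myoid genes was 27.4 to 34.1 times with exosomes and 43.3 to 46.7 times without, with 3 of 6 called lower and none with median centring. That of 6 endothelial genes was 1.24 to 1.53 times with exosomes and 0.913 to 1.07 times without, with 2 of 5 called higher and 3 lower. *Pecam1* carried that rise, since without it the sums were 0.380 to 0.411 times with exosomes and 0.456 to 0.497 times without. Of lymphocyte and mast cell genes 0 of 6 tested were called higher and 4 lower, but 1 higher and 0 lower with quantile normalization or median centring. Of germ cell genes 0 of 2 were called higher and 1 lower, and 0 lower with those scalings. Among the 4 lower lymphocyte and mast cell genes is *Cpa3*, well above background on 0 exosome and 3 untreated arrays. This gene thus met the filter only through the group where it was high. Over all tested genes 14.6% were called higher and 29.2% lower. With quantile normalization those shares were 20.2% and 16.1%, and with median centring 33.8% and 7.99%. The Leydig cell genes summed to 90.6 to 106.6 times with exosomes and 91.6 to 99.8 times without, with 0 of 7 tested called higher and 1 lower, *Cyp11a1*, the enzyme that starts steroid synthesis (-0.86 ± 0.12, adjusted p = 0.0098 in limma), and the same counts at an unadjusted p below 0.05. With median centring 2 were called higher and 0 lower, the call of *Cyp11a1* being lost (-0.45). A dimmer probe of *Scarb1*, another gene of this list, passed downward (-0.91, adjusted p = 0.0098 in limma). The probe used for it gave 0.37 and did not pass. The part of other cells' RNA in the chemokine levels was not tested.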

How the data were processed

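Total RNA of 6 samples was hybridised, per the labels, to 1-colour Agilent arrays with Cy3. The deposited array files hold spot intensities that the authors read with Agilent Feature Extraction 11.0.1.1, and per the file headers the processed intensity is corrected for background on each array, with no normalization between arrays. Each array held 42877 gene spots, none saturated, and 388 to 572 outlier spots per array were left out. A series table deposited by the authors holds log2 values, with 1 median of 5.68 in all 6 columns, and each column correlated at 0.996 or above with its own array. Its normalization is not given in the sources used here, and it served as an alternative.

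From the log2 processed intensity the 75th percentile of all gene spots of the array was subtracted, and spots of a probe were averaged. Probes well above background on at least 3 of 6 arrays were tested (20426 of 30367), and the brightest tested probe stood for a gene. limma 3.58.1 in R 4.3.3 fitted the 2 groups with no covariate, the prior degrees of freedom being 2.60, and Benjamini-Hochberg adjustment ran over the tested probes. Precision is limited by the number of arrays. Tables and figures used Python 3.11.15, pandas 2.3.3, numpy 2.4.6 and matplotlib 3.10.9.

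Symbols came from RefSeq accessions looked up in the GRCr8 table, while the array was designed on build rn4. The members, lists and alternatives were chosen with earlier results of these data known. The rule named all 10 members, receptors Ccr1, Ccr2, Ccr3 and Ccr4, the 3 nearest genes of each member past the test, and of each other list all genes past the test where 5 or fewer, otherwise the 4 of smallest adjusted p. For Sertoli, myoid, endothelial, lymphocyte and germ cell lists counts and summed levels are given, and Clu, Wt1, Pecam1 and Cd68 are named because they carried a sum or a count, seen afterwards. Ccl20, Cxcl12, Csf1r, Fcgr1a, Fcer1g, Aif1 and Scarb1 are named for their dimmer probes, also seen afterwards. Cpa3, C1qb and Mmp14 were likewise named after their values were seen. An item that the rule picked is not reported here and stays in the counts. Alternatives were quantile normalization, median centring, the deposited table, normexp with an offset of 50, other filters and probe rules, outlier spots kept, blocks for replicate number and scan, a 2-fold minimum and leaving out each array. Normexp used median spot signals, since the files hold no mean signal.

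Samples with the same replicate number did not deviate together (correlations of -0.086, -0.028 and -0.023), so the numbers were not used as pairs.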

Additional observations from a re-analysis of the deposited data

How the results depend on the processing

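When arrays were left out in turn, members called higher numbered 0 to 5 (4 with all arrays) and lower 0 to 2 (2). Over the same fits other chemokines called higher numbered 0 to 3 (2) and lower 0 to 2 (1), receptors lower 1 to 3 (3), inducing signals higher 1 to 10 (8) and lower 4 to 7 (6), and macrophage genes higher 0 to 1 (0) and lower 1 to 6 (7). Of all tested genes these fits called 1.22% to 15.7% higher and 7.5% to 30% lower. With quantile normalization 1 member was lower, and 3 macrophage genes were higher and 4 lower, and the deposited table gave the same 3 counts. Of all tested genes 20.2% were called higher with either, and 16.1% and 16.2% lower. With median centring 7 members were higher and 0 lower, 7 other chemokines and 1 receptor higher, 3 inducing signals lower, and 5 macrophage genes higher and 1 lower. That scaling called 33.8% of all tested genes higher and 7.99% lower. Normexp and the filter on all 6 arrays each called 1 macrophage gene higher, beside 17.9% and 18.9% of all tested genes. With the percentile taken over probes instead of spots, tried after the data were seen, 1 member was lower, and 1 macrophage gene was higher and 4 lower. That percentile called 18.9% of all tested genes higher and 24.1% lower. With no filter on dim probes 2 members were higher and 0 lower, beside 5.7% and 17% of all genes, 3 other chemokines and 5 receptors lower, 4 inducing signals higher and 4 macrophage genes lower. With scan as a random block 1 member was lower, beside 24.7% of all tested genes. A 2-fold minimum left 0 members higher and 0 lower, 1 other chemokine higher and 0 lower, 1 inducing signal higher and 3 lower, and 2 macrophage genes lower. That minimum left 1.49% of all tested genes higher and 8.07% lower. With the replicate number as a block, which the design does not support as a pairing, 2 members were higher (Ccl2 and Cxcl14) and 0 lower, with 3 inducing signals higher and 4 macrophage genes lower, and all genes called fell to 7.01% higher and 21.9% lower, while 0 of 3 exosome arrays correlated best with the untreated array of their own number. The change of Ccl4 turned to 0.18 with median centring. That of Ccr1 turned to 0.27 with quantile normalization and the deposited table and to 0.10 with median centring. Fewer arrays are part of the construction of those that leave one out, and the cause of the other moves was not tested. The dim probes of Ccl12, Ccl22 and the Ccr genes lie close to background, which limits their precision.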
